A study of Danio rerio with 2 samples.

Results

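The nuclear genes of the respiratory chain were compared between whole zebrafish larvae homozygous for the lri12 mutation and their wild-type clutch-mates at 5 days post-fertilization (dpf). They were chosen by symbol: every row of the deposited table with a gene symbol in lower case that starts with nduf, uqcr, sdha, sdhb, sdhc, sdhd or atp5, with cox and a digit, or that is cyc1. This gave 70 of the 31605 rows with a symbol. Each row is counted as 1 locus, though some rows share the same position. A further 38 loci carry the same stems in capitals (such as COX7A1), the spelling this table gives to genes named after human counterparts. They complete several complexes and are described beside the 70, but they fall outside the rule as written and were added after their values had been seen. RNA of each genotype came from 1 pool of 20 whole larvae raised at the same temperature, sequenced as 1 library, so what follows compares 2 libraries without replicates. The gene that lri12 affects is not named in the labels, and no check of the targeted gene could be made.

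The respiratory chain of the inner mitochondrial membrane passes electrons from NADH (complex I) and succinate (complex II) through ubiquinone to complex III, then by cytochrome c to complex IV, where oxygen is reduced. Complexes I, III and IV pump protons, and complex V, the ATP synthase, uses the proton gradient to make ATP. Most subunits are encoded in the nucleus and a few core subunits in the mitochondrial genome, and tissues rich in mitochondria such as heart and muscle can use their own isoforms of some subunits.

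Respiratory chain transcripts stood at almost the same level in both pools. Levels are in FPKM, a fragment count divided by transcript length and by the size of the library, and pairs of levels give the wild-type pool first and the mutant pool second. A difference is the log2 ratio of mutant to wild-type level after 1 FPKM was added to each, and folds are on that scale, which understates those of low loci. Loci whose 2 levels averaged 1 FPKM or more entered. Of the 70 loci 69 entered. The exception was ndufs8b, a second copy of a core complex I subunit, at 0.158 and 0.162 FPKM. Among the 69, 0 stood 1.2-fold or more higher in the mutant and 0 stood that far lower, whereas 6.06% (higher) and 7.48% (lower) of the 18902 entering loci of the whole table did. None was 2-fold higher or lower either. Of all entering loci 0.397% and 0.518% were, so a list of 69 would hold few or none, and this count says little. At 1.1-fold, a limit chosen after the values were seen, 2 were higher (17.2% of all loci) and 0 lower (17.7%), and with a pseudocount of 0.1 FPKM these counts were 3 and 1. The differences of the 69 ran from -0.13 to 0.16 with a median of 0.003, beside a median of 0.004 over all entering loci, and 35 of them were above 0 and 34 below. Their SD across loci was 0.066, against 0.286 for all loci and 0.297 for the 1491 loci with a mean of at least 50 FPKM. Loci of the respiratory chain share their tissues and are not independent, and these spreads describe the loci, not the error of a measurement.

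**Figure D1:**
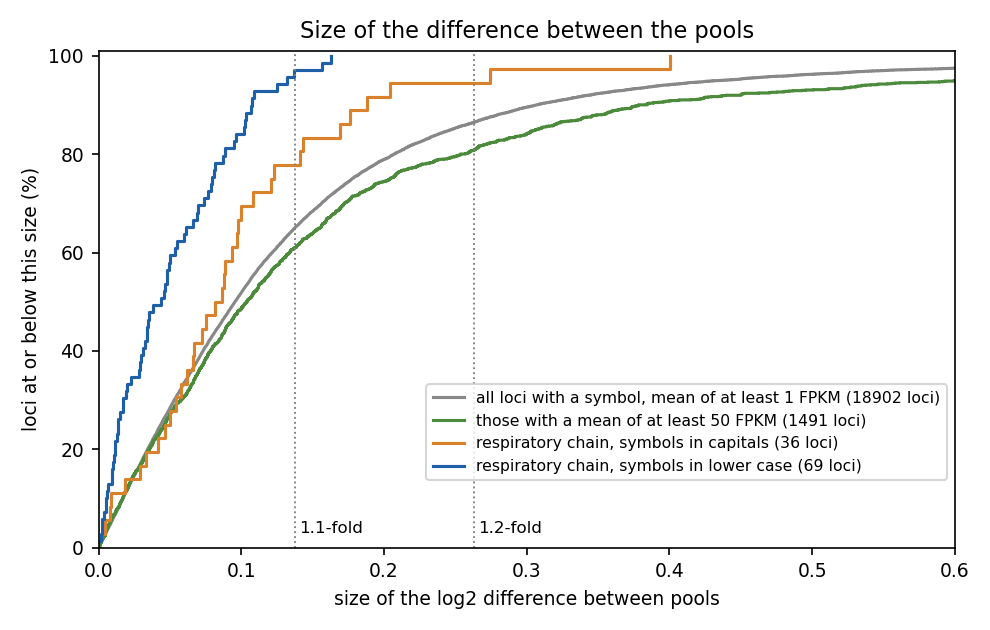
Share of loci (vertical axis, percent) whose log2 difference between the mutant and wild-type pools, taken without its sign, is no larger than the value on the horizontal axis. Curves are for respiratory chain loci and for all entering loci, with dotted lines at 1.1-fold and 1.2-fold. The curve of the 69 loci with symbols in lower case reaches 97.1% at 1.1-fold, where all loci stand at 65.1% and those of at least 50 FPKM at 61.0%.

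Of the 38 loci in capitals 36 entered, and they spread more widely, with an SD of 0.126 and a median of 0.01. Here 0 were 1.2-fold or more higher and 2 were lower by as much, the complex IV isoforms COX7A1 and COX6A2. These 2 are 5.56% of the 36, no larger a share than the 7.48% of all entering loci. In the authors' deposited table the q of all 69 tested members was 0.999 and the smallest p was 0.530. The 38 loci in capitals also had a q of 0.999 throughout, with a smallest p of 0.133. Of all entering loci, 0.45% had a deposited q under 0.05. These values of the authors compare 1 pool with 1 pool and do not measure variation between clutches.

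The complexes differed in level, and this order was shared by both pools. With paralogues of the same subunit summed and both spellings used, 70 subunits were measured. FPKM is per length, so their levels are set side by side here. The comparison is rough, since no label states the unit and some rows share a position. The treatment of reads with several matches is not known either. Subunits of complex II, which also serves the tricarboxylic acid cycle, had the lowest median, at 82.2 and 83.9 FPKM over 4 subunits. The 36 subunits of complex I followed at 148 and 147 FPKM, and the 7 of complex III at 222 and 223 FPKM. The medians were highest for the 13 subunits of complex V (526 and 519.7 FPKM) and the 10 of complex IV (567 and 577 FPKM). The ranges of neighbouring complexes overlapped: complex I ran from 39.7 to 360.3 FPKM in wild type and complex III from 88.1 to 509 FPKM, and complexes IV and V each spanned the median of the other. The most abundant subunit was the c subunit of the ATP synthase, which forms the rotating ring of the enzyme, with 2326 and 2344 FPKM summed over 3 loci.

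**Figure D2:**
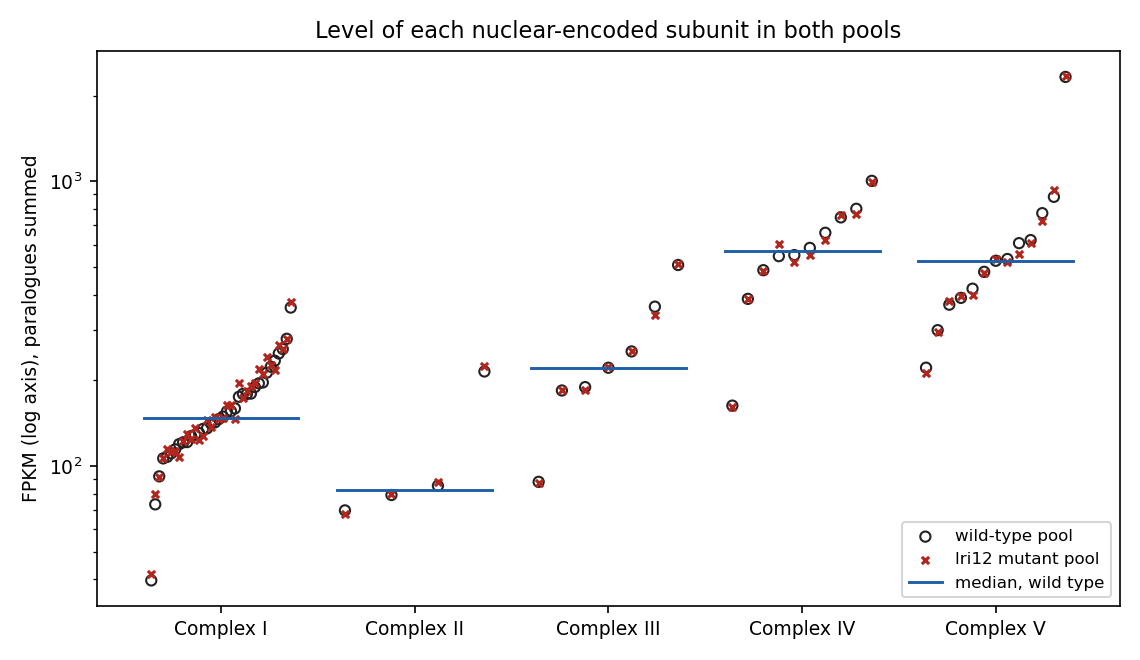
Level of each nuclear-encoded subunit in FPKM (log axis), with paralogues summed and subunits ordered by wild-type level within each complex; circles show the wild-type pool, crosses the mutant pool and blue lines the wild-type median. The crosses sit on or beside the circles in every complex. The medians of complexes IV and V stand above those of complexes I and II, though single subunits of complex I reach above the lowest of complexes IV and V.

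Complex I, the entry point for electrons from NADH, was represented by 26 loci, of which 25 entered with a median log2 difference of 0.01. Of these 15 were above 0 and 10 below. With the loci in capitals, 25 of 38 were above 0 and 13 below, and the median was 0.04. By the rule 6 loci of the complex I core, the subunits that carry the flavin and the iron-sulfur clusters, entered and ran from -0.08 to 0.02. Among them ndufv1, which binds NADH, stood at 135 and 128 FPKM. The main locus of the iron-sulfur subunit ndufs8, ndufs8a, stood at 130.4 and 124 FPKM, and the largest core subunit ndufs1 at 92.1 and 91.2 FPKM. ndufs3 stood at 146 and 147 FPKM and ndufs7 at 223 and 227 FPKM. Core loci therefore lay on either side of 0, with 2 above and 4 below.

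Accessory subunits of the peripheral arm, which surround that core, mostly stood slightly higher in the mutant. Of 9 loci, among them both loci of ndufv3, 8 were above 0, with a median of 0.09 and a range from -0.02 to 0.16. Of all 18902 entering loci, 9704 were above 0 and 9198 below. The group is 1 of several small classes of complex I, and its direction was not tested. In the core class 2 of 6 entering loci were above 0, and among membrane arm accessory loci 4 of 9. The highest was ndufa5 (chromosome 4, 4803655 to 4805868, build Zv9), at 175 and 195 FPKM, 1.11-fold higher and 1 of the 2 members past 1.1-fold. ndufa12 stood at 136 and 145 FPKM, ndufa7 at 121 and 129 FPKM, ndufa9 at 108 and 115 FPKM, and ndufs6 at 156 and 163 FPKM. ndufs4 lay near 0 at 111 and 112 FPKM. The only locus below 0 joins ndufa6 with a second symbol, TRIOBP (2 of 2), and stood at 115 and 113 FPKM. The symbol ndufv3 appears at 2 loci on chromosome 9, at 22.7 and 23.5 FPKM and at 17.0 and 18.4 FPKM. The single peripheral accessory locus in capitals, NDUFA2, was also above 0, at 197 and 210.5 FPKM. All these differences are inside 1.2-fold.

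Accessory subunits of the membrane arm, the proton-pumping part, showed no shared direction. Of 9 loci 4 were above 0 and 5 below, with a median of -0.002. Of the complex I symbols in lower case ndufb9 was lowest, at 234 and 218 FPKM, and its position is shared with 3 other rows of the table. ndufb8, the most abundant complex I member, stood at 280.0 and 279.6 FPKM. ndufb10 stood at 129 and 136 FPKM, ndufs5 at 189 and 196 FPKM, and ndufb6 at 179 and 183 FPKM. The joined locus of ndufb4 stood at 179 and 173 FPKM, ndufb5 at 141 and 137 FPKM, ndufa10 at 149 and 148 FPKM, and ndufa8 at 121 and 122 FPKM. The 10 membrane arm loci in capitals spread further in both directions. Highest among them were the joined locus of NDUFA13, at 213 and 241 FPKM, and NDUFA11, at 195 and 219.7 FPKM. Lowest were NDUFB3, at 119 and 108 FPKM, and NDUFB2, at 159 and 146 FPKM, both at positions shared with other rows. In all 7 of the 10 were above 0 and 3 below, and NDUFA1, the most abundant complex I subunit in either spelling, stood at 360.3 and 377 FPKM. The core subunit NDUFV2, also in capitals, stood at 106 and 107 FPKM. The mitochondrial acyl carrier protein, a subunit found in complex I that also serves fatty acid synthesis, is split between ndufab1, at 67.7 and 70.2 FPKM, and NDUFAB1 (2 of 2), at 112 and 120.2 FPKM.

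Complex II, succinate dehydrogenase, has no subunit in the mitochondrial genome. Its flavoprotein sdha stood at 69.9 and 67.7 FPKM, and its iron-sulfur subunit sdhb at 85.3 and 88.2 FPKM, from a position shared with 15 other rows. The membrane anchor sdhc stood at 215 and 224 FPKM, the highest difference in the complex at 0.06. The other anchor is present as a pair of copies, sdhdb at 78.0 and 78.6 FPKM and sdhda at 1.14 and 0.998 FPKM. The RefSeq gene table gives each of these symbols as a synonym of the other, so the names may be exchanged between sources. The median over the 5 loci was 0.01, with 3 above 0 and 2 below.

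Complex III, which passes electrons from ubiquinol to cytochrome c, had a median of 0.0003 over 8 loci. Its catalytic proteins were level between the pools: the Rieske iron-sulfur protein uqcrfs1 stood at 78.8 and 78.5 FPKM, and cytochrome c1, cyc1, at 189 and 186 FPKM. The core proteins uqcrc1 (184 and 185 FPKM), uqcrc2a (97.1 and 94.1 FPKM) and uqcrc2b (124 and 129 FPKM) also differed by less than 1.1-fold. Lowest was the accessory subunit uqcrb, at 363 and 338 FPKM, a log2 difference of -0.10. The hinge protein uqcrh stood at 253 and 254 FPKM and uqcrq at 509 and 513 FPKM, so that 4 of the loci lay above 0 and 4 below.

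Complex IV, cytochrome c oxidase, held the highest and the lowest difference among entering loci of both spellings. The rule gave 9 loci with a median of -0.01, of which 3 were above 0 and 6 below. Subunit 7a, cox7a2 (chromosome 17, 50497328 to 50509536), was the highest of all 69, at 423 and 474 FPKM, 1.12-fold higher. The abundant subunits cox4i1 and cox6a1 lay on the other side, at 505 and 478 FPKM and at 569 and 538 FPKM. cox7c, the most abundant member of complex IV by the rule, stood at 747 and 762 FPKM, cox8a at 488 and 483 FPKM, and ndufa4, first described in complex I and now placed in complex IV, at 158 and 157 FPKM. With the loci in capitals, 5 of 20 were above 0 and 15 below, and the median was -0.03. Among the abundant ones COX6C stood at 801 and 765 FPKM, COX5B (1 of 3) at 603 and 568 FPKM, and COX6B1 (2 of 2) at 890 and 895 FPKM.

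Complex V, the ATP synthase, had a median of -0.02 over 11 loci, with 3 above 0 and 8 below. With the loci in capitals, 7 of 17 were above 0 and 10 below, and the median was -0.01. In the catalytic head the alpha subunit atp5a1 (chromosome 21, 5320080 to 5331830) had the lowest difference of all 69 loci, at 607 and 554 FPKM, or -0.13. Its catalytic partner, the beta subunit listed as ATP5B, stood at 773 and 727 FPKM. The stalk subunits gamma (atp5c1, 481 and 477 FPKM) and delta (atp5d, 300.2 and 297 FPKM) were nearer 0. Among the peripheral stalk and membrane subunits, atp5o stood at 534 and 519.7 FPKM, atp5l at 622 and 609 FPKM, atp5h at 389.8 and 395 FPKM, and the joined locus of atp5f1 at 419.9 and 399 FPKM. Of the loci in capitals, the f subunit ATP5J2 stood at 882 and 933 FPKM, and ATP5EP2, the only locus here named for the epsilon subunit, at 526 and 533 FPKM. By the rule the 3 loci above 0 were atp5h and both copies of the e subunit, atp5ia (80.5 and 84.0 FPKM) and atp5ib (288 and 295 FPKM).

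**Figure D3:**
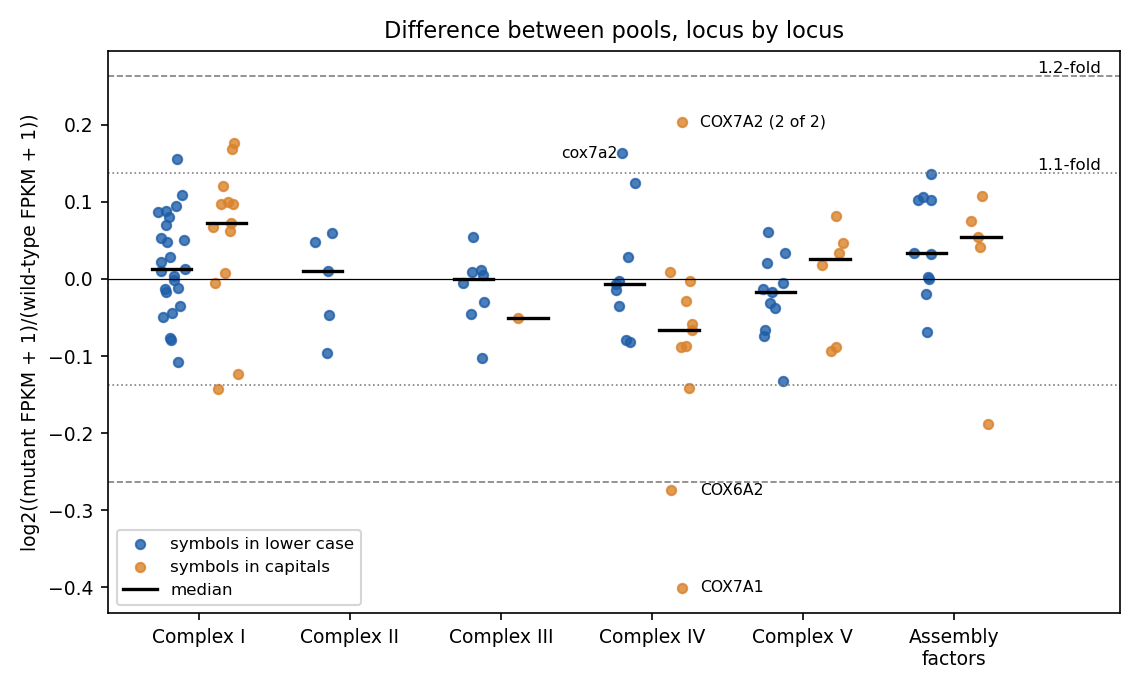
Log2 difference between the mutant and wild-type pools (vertical axis) of each entering locus, by complex and for assembly factors; blue points are symbols in lower case, orange points symbols in capitals and black bars their medians, with dotted and dashed lines at 1.1-fold and 1.2-fold. All blue points lie inside 1.2-fold, and the orange points of COX7A1 and COX6A2 lie below it.

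Assembly factors build the complexes without being part of the mature enzymes. The group taken here also holds the supercomplex protein cox7a2l and atp5s. It had a median of 0.03 over 10 loci, with 7 above 0 and 3 below. Their median levels were 15.6 and 15.7 FPKM, far below that of the subunits. The copper chaperone cox17 stood at 88.4 and 95.01 FPKM, and cox11, which delivers copper to the catalytic site of complex IV, at 9.67 and 10.7 FPKM, the highest of the group at 0.14. The haem enzymes cox10 and cox15 stood at 18.5 and 17.6 FPKM and at 9.77 and 9.79 FPKM. The complex I factors ndufaf1 and ndufaf2 stood at 31.5 and 32.3 FPKM and at 8.49 and 8.71 FPKM, and sdhaf2, which helps attach the flavin of complex II, at 20.0 and 21.7 FPKM. cox7a2l, which in mammals joins complexes III and IV into supercomplexes, stood at 125 and 123 FPKM, and the remaining members cox16 and atp5s at 8.48 FPKM in both pools and at 12.8 and 13.8 FPKM. In capitals, COX18, an insertion factor of complex IV, was lowest at 6.90 and 5.93 FPKM, and the other 4 (NDUFAF3, NDUFAF4, COX19 and the joined locus of SDHAF1) were above 0. The rule also takes in cox4nb, which is named for its position next to cox4i1 and encodes a subunit of the endoplasmic reticulum membrane protein complex. It lies 3186 bases from cox4i1 on chromosome 18 (30444963 to 30448930) and stood at 22.6 and 22.4 FPKM.

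Tissue isoforms and paralogues kept their order of abundance in both pools. In all 16 sets of loci for the same subunit (38 loci in all, some in capitals) the same locus was most abundant in wild type and mutant. The largest move in a locus's share of its set was 1.72 percentage points, from uqcrc2a to uqcrc2b, and the next was a drop of COX7A1 from 5.21% to 3.53% of subunit 7a. How reads were divided between similar copies is not stated, so the split within a set is uncertain.

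Subunit 7a had members on both sides of 0. COX7A1 (chromosome 15, 19364726 to 19367438), whose mammalian counterpart is the isoform of heart and skeletal muscle, stood at 28.4 and 21.3 FPKM, 1.32-fold lower. The widely expressed form was higher at both of its loci, cox7a2 as given above and COX7A2 (2 of 2) at 94.5 and 109 FPKM, 1.15-fold higher. Summed, subunit 7a stood at 546 and 604 FPKM, 0.15 higher on the log2 scale. This sum and the shares of subunit 7a leave out cox7a2l, which was grouped with the assembly factors. Subunit 6a had the same pair of forms: COX6A2 (chromosome 3, 31175602 to 31193221), the heart and muscle form of mammals, stood at 15.4 and 12.5 FPKM, 1.21-fold lower, beside cox6a1 at 569 and 538 FPKM. In both subunits the muscle-type form had the lower difference of its set, a comparison picked out after the values were seen. Each contributed little of its subunit, with COX6A2 at 2.63% and 2.27% of subunit 6a.

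Markers of muscle and heart lay on both sides of 0, and their part in the levels of COX7A1 and COX6A2 was not tested. The 14 fast muscle markers had a median of 0.04, with 8 above 0 and 6 below, and summed to 65114 and 68457 FPKM. The 6 slow muscle markers, of which 1 is also on the heart list, had a median of 0.10, with 5 above 0, and summed to 1278 and 1387 FPKM. Of 8 heart loci 7 entered, with a median of -0.08 and sums of 119 and 120.5 FPKM, and the marker left out, myh6, stood at 0.357 and 0.381 FPKM. None of these markers was listed at 0. Single markers lay far apart, with the fast myosin myhz1.1 at 972 and 744 FPKM and the fast troponin tnnt3a at 162 and 255 FPKM. The sarcomeric mitochondrial creatine kinase ckmt2, which passes energy from ATP to creatine in muscle, stood at 183 and 146 FPKM, 1.26-fold lower. It was taken from the list of mitochondrial content described below, where it had the lowest difference, not from these marker lists. The other creatine kinase of that list, ckmt1, was lower too, at 98.9 and 80.9 FPKM. The creatine kinases on the fast muscle list were closer to level, ckma at 2964 and 2861 FPKM and ckmb at 2853 and 2915 FPKM. In whole larvae, fewer cells of a type and less RNA per cell cannot be told apart.

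Other isoform sets were close to level. The subunit 4 gene cox4i2, a form that responds to low oxygen in mammals, stood at 45.6 and 44.5 FPKM, making 8.27% and 8.52% of subunit 4. For subunit 5a, cox5ab stood at 247 FPKM in both pools, at a position shared with 7 other rows. COX5A (1 of 3) stood at 124 and 122 FPKM and cox5aa at 14.5 and 15.9 FPKM. Both lie in the same stretch of chromosome 25, which each shares with 9 other rows. COX5B (2 of 3) and COX5B (3 of 3) stood at 13.9 and 13.1 FPKM and at 42.4 FPKM in both pools, and COX6B1 (1 of 2) at 114 and 104 FPKM. A low locus in that stretch of chromosome 25, which joins COX5A with pkm2b, did not enter, at 0.456 and 0.716 FPKM. The ndufa4 paralogues NDUFA4L2, which in mammals respond to low oxygen, were low, at 4.44 and 4.23 FPKM for (2 of 2) and at 1.14 and 0.615 FPKM for (1 of 2), which did not enter. The c ring genes, which in mammals encode the same mature protein behind different import sequences, stood at 1439.7 and 1435 FPKM for atp5g, at 624 and 638 FPKM for ATP5G2, and at 263 and 272 FPKM for ATP5G3 (2 of 2). The position of atp5g on chromosome 6 (10692096 to 10813750) is shared with 5 other rows. For the F6 subunit, atp5j stood at 215 and 205 FPKM and the joined locus of ATP5J (2 of 2) at 6.50 and 6.03 FPKM, and the second Rieske locus, UQCRFS1 (2 of 2), stood at 9.29 and 8.94 FPKM.

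**Figure D4:**
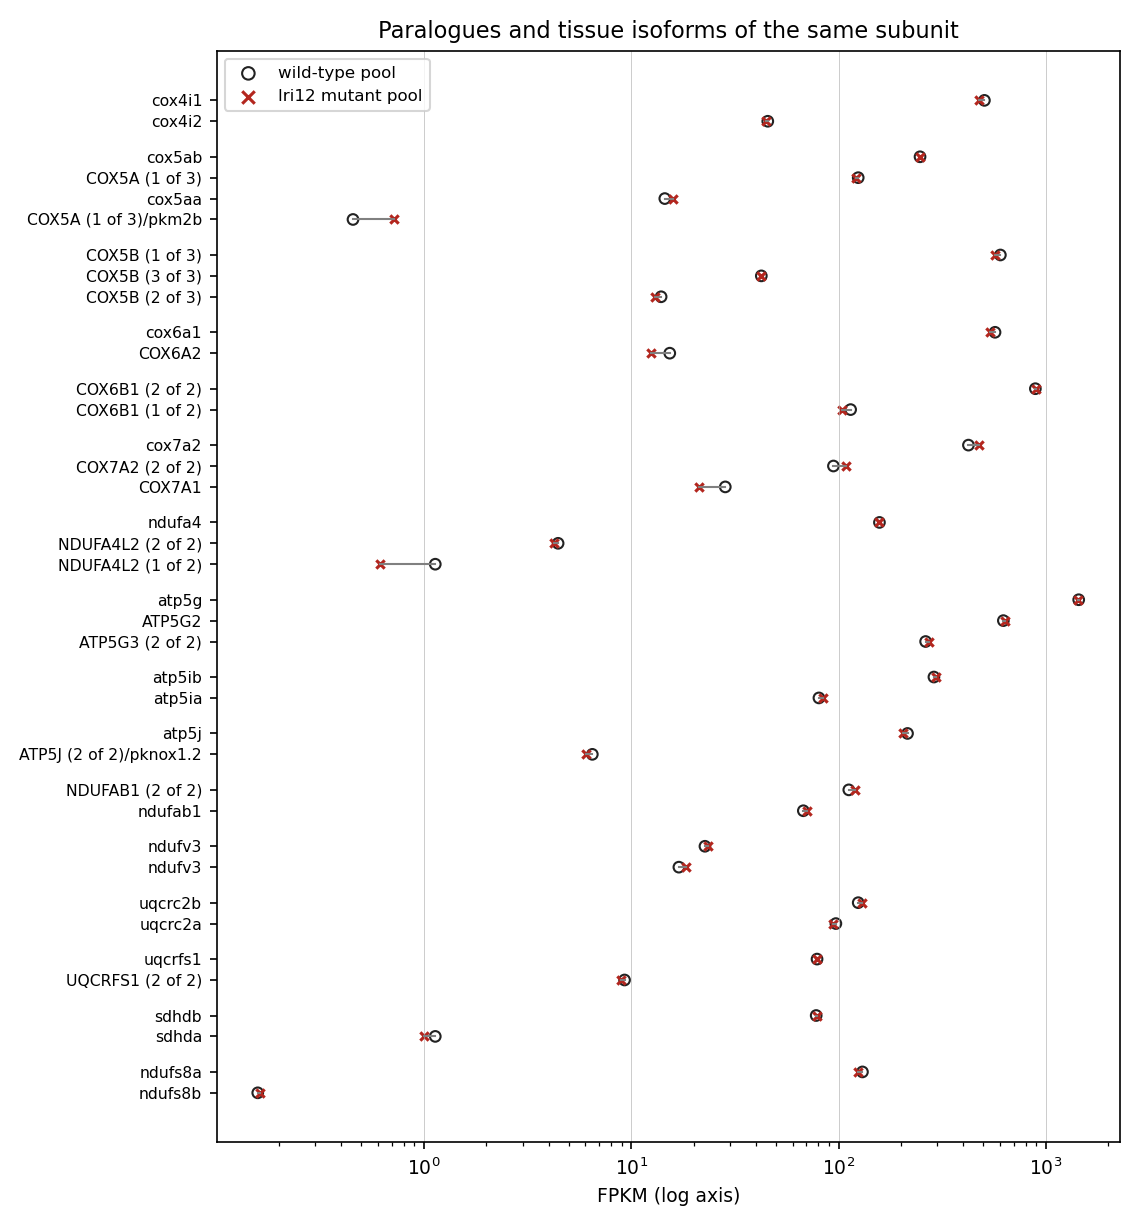
Level in FPKM (log axis) of each locus in the 16 sets of paralogues and tissue isoforms, grouped by subunit; circles show the wild-type pool and crosses the mutant pool, joined by a line. COX7A1 and COX6A2 shift to the left in the mutant and cox7a2 and COX7A2 (2 of 2) to the right. The widest gaps on this axis belong to loci with a mean below 1 FPKM, which did not enter, NDUFA4L2 (1 of 2) at 1.14 and 0.615 FPKM and COX5A (1 of 3)/pkm2b at 0.456 and 0.716 FPKM.

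The partners of these subunits from the mitochondrial genome spanned a wider range than the 69 loci in lower case. With the symbols in capitals, the 105 respiratory chain loci spanned a wider range still, from -0.40 to 0.20. The 10 loci that hold the 13 protein-coding mitochondrial genes had a median of -0.08, from -0.24 to 0.13, with 3 above 0 and 7 below. In complex IV the catalytic subunit mt-co1 stood at 9522 and 8161 FPKM while mt-co2 stood at 14492 and 15906 FPKM. The locus that joins mt-co3 with mt-atp6 and mt-atp8 had the lowest difference of the 10, at 22354 and 18982 FPKM.

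Electron carriers and regulators also had medians near 0. The 20 entering loci of electron carriers, ubiquinone synthesis and electron entry had a median of 0.02 and ran from -0.24 to 0.36. Of these 1 was higher by 1.2-fold and 0 lower. Over all entering loci the shares were 6.06% and 7.48%, so lists this short would hold few such loci. Cytochrome c, cycsb, stood at 243 and 247 FPKM, and the proline dehydrogenase prodha, the locus past 1.2-fold, at 9.25 and 12.1 FPKM. Assembly and inhibitor genes outside the symbol rule had a median of -0.003 over 24 loci, with hig1, matched to the supercomplex-associated gene higd1a as a synonym, 1.21-fold higher at 42.6 and 51.9 FPKM. The 20 loci of transcriptional regulators and of mitochondrial DNA maintenance had a median of 0.03 and 0 past 1.2-fold in either direction. Among them nrf1, an activator of respiratory genes, stood at 11.7 and 11.3 FPKM, and tfam, which packages mitochondrial DNA, at 23.4 and 21.6 FPKM.

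Loci of the tricarboxylic acid cycle and of other mitochondrial proteins lay on both sides of 0. Of 17 entering loci of the cycle and its neighbouring enzymes, 0 were higher by 1.2-fold and 2 lower, with 7 above 0, 10 below and a median of -0.05. The 2 were the succinyl-CoA ligase subunit suclg2, at 60.3 and 47.2 FPKM, and the cytosolic malate dehydrogenase locus mdh1a, at 473 and 379.6 FPKM. The locus matched for citrate synthase joins cs with CS (1 of 2) and did not enter, at 0.132 and 0.165 FPKM, so that enzyme is missing from the 17. Other loci in capitals were not looked up for it, so these values do not give the level of the enzyme. Genes used as a measure of mitochondrial content (channels, carriers, import and folding proteins) had a median of -0.04 over 18 loci, 6 of them above 0 and 12 below, with 1 higher by 1.2-fold and 3 lower. Of all entering loci 6.06% were that far higher and 7.48% that far lower, and the direction of neither list was tested. The chaperone hspd1 was the higher one, at 49.0 and 59.8 FPKM, and the lower ones were both creatine kinases, ckmt2 and ckmt1 (98.9 and 80.9 FPKM), and the phosphate carrier slc25a3a, at 36.8 and 29.6 FPKM. Its more abundant copy slc25a3b stood at 553 and 500.4 FPKM. The adenine nucleotide translocator slc25a5 stood at 4200 and 3962 FPKM in a joined locus.

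**Figure D5:**
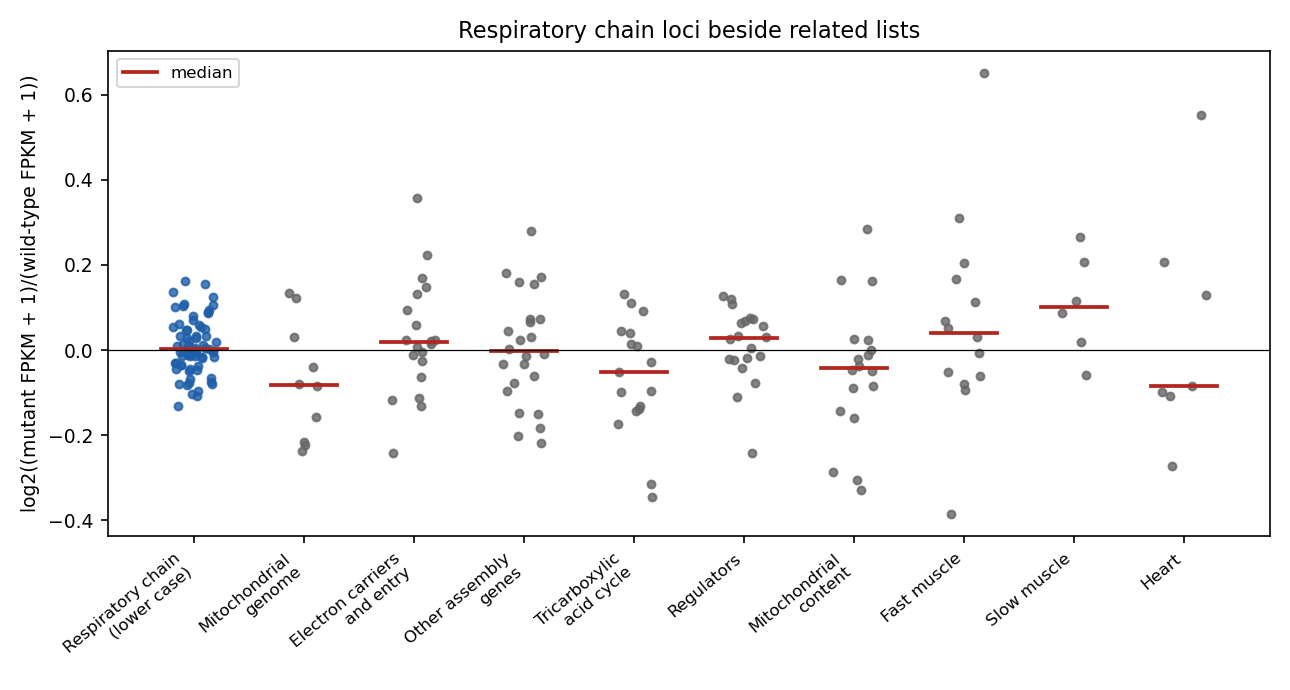
Log2 difference between the mutant and wild-type pools (vertical axis) of each entering locus with a symbol in lower case of the respiratory chain (blue) and of related gene lists and muscle and heart markers (grey), with medians in red. The 69 respiratory chain loci lie between -0.13 and 0.16, and each grey list spans a wider range. Several grey lists also take symbols in capitals, and with those the 105 respiratory chain loci run from -0.40 to 0.20.

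Markers of several organs differed far more between the same pools. All 12 exocrine pancreas markers were lower in the mutant, with a median of -1.35 and sums of 11905 and 5166 FPKM. Of 8 intestinal markers 7 were lower, with a median of -0.81, and photoreceptor markers had a median of -0.32 over 10 loci. Liver markers had a median of -0.05 over 10 loci but ran from -1.16 to 1.71, with 4 above 0 and 6 below. The lowest was fabp10a, at 811 and 363 FPKM, and the highest a low serpina1 locus, at 0 and 2.27 FPKM. Medians were -0.06 over 9 loci for neurons, -0.26 over 8 for red cells, -0.19 over 5 for kidney and 0.12 over 6 for ionocytes. The part of these tissues in the small differences of respiratory chain genes was not tested.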

How the data were processed

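RNA from 1 pool of 20 larvae per genotype was sequenced. The authors deposited 1 table of 40114 loci with a value per pool, taken as FPKM because its columns are those of a Cuffdiff comparison, per the file headers; no label states the unit. CASAVA, Bowtie and the build Zv9 are named, without versions, per the submitters' processing notes. The sources used here do not give the strand setting, the annotation or the treatment of reads with several matches. Depth is unknown. As a rough gauge of relative depth, ratios of mutant over wild-type level were taken among 5646 low loci (mean below 0.5 FPKM). The commonest ratio was -0.15 on the log2 scale, with 387 of the 5646 loci within 0.01 of it. The median over windows of that width was 17 loci. The peak was not read as a change of these loci. Deposited p-values and q-values come from the authors and are quoted only as theirs. The 19 loci with failed estimates and the 8509 without a symbol were left out. Starts were raised by 1 to count from 1.

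Differences were computed as log2((mutant + 1)/(wild type + 1)) for loci with a mean of at least 1 FPKM, with Python 3.11.15 and pandas 2.3.3, by code tested on simulated data. No test was run, as each genotype has 1 pool. Limits of 1.2-fold and 2-fold describe size. Complexes, arms and roles were assigned by symbol from textbook knowledge, largely of mammals. Named loci are those past 1.2-fold, the highest and lowest difference and the 2 most abundant subunits of each complex, and all paralogues; other members are given for completeness. The symbols in capitals, the 1.1-fold limit and the 50 FPKM level were added after values were seen. Members and lists were chosen with earlier results of these data known. Of 231 list entries, 165 matched as written, 20 in capitals, 20 by a synonym in the RefSeq gene table of GRCz12tu and 26 not. The entry dld was dropped, since in zebrafish it names a Notch ligand. Of the 70 loci 11 share their position with other rows and 3 join several symbols. The values of 1 member are not reported here, though it is counted in its groups. No sequences are printed because none were used here.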

Additional observations from a re-analysis of the deposited data

How the results depend on the processing

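The counts past 1.1-fold and 1.2-fold and the medians of all members, of each complex and of the assembly factors were recomputed with a pseudocount of 0.1 or of 5, without the filter on low levels, with that filter at 5 FPKM, with a shift to a median of 0, rows of the same symbol summed, only loci with 1 symbol and only loci the authors tested. Chosen after seeing the data were the addition of symbols in capitals and the removal of shared positions. With symbols in capitals, 5 loci were 1.1-fold or more higher, 5 were that far lower and 2 were 1.2-fold lower, against 2, 0 and 0 as reported, and with a pseudocount of 0.1 the count 1.1-fold lower was 1. The group medians are so near 0 that only their sign was followed. That of all members turned to -0.0018 and that of complex III to -0.0041 with the shift, complex III also to -0.0050 with symbols in capitals, and complex II to -0.0182 without shared positions, so none of these 3 has a direction that holds. Complex I stayed above 0, complexes IV and V below it and assembly factors above it in each alternative run. These runs reuse the same 2 libraries and mostly the same loci, so a sign that is kept does not establish a direction. The shift to a median of 0 moved all loci by 0.004 and changed the sign of 2 members. Of 450 values of named loci 449 stayed within 0.1 and on their side of 1.2-fold, and COX6A2 came inside 1.2-fold with a pseudocount of 5, at -0.22. No paired analysis was possible because each genotype has 1 pool. With 1 library per genotype and unknown depth, differences of the size seen here cannot be told apart from variation between pools.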
